A study of Mus musculus with 2 samples.

Results

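The 35 insulin and IGF signalling genes described here are the receptors for insulin and IGF1, the adaptor, lipid kinase and protein kinase genes downstream of them, the receptor phosphatase gene Ptpn1, Igf1 itself and genes of 5 IGF-binding proteins. They were taken by name from a list of 35 symbols matched to the gene names in the array files, by a rule that holds no measured value but was written with earlier results of these data known, out of 34740 genes named on the array. All 35 had at least 1 probe (60 probes, 66 spots), and 34 were well above background on both arrays. Expression was measured on 2 one-colour Agilent oligonucleotide arrays, each hybridised with a Cy3-labelled RNA sample. The CSE-KO sample came from beta cells of C57BL/6J mice with a knockout of CSE, aged 6 months and fed a high-fat diet. The CSE-WT sample came from beta cells of wild-type C57BL/6J mice of the same age on the same diet. High-fat feeding was thus common to both, and no sample on another diet was analysed here. CSE is cystathionine gamma-lyase, the product of Cth, which makes hydrogen sulfide from cysteine. How the knockout was made, how many animals gave each sample, and whether beta cells were sorted or islets were taken whole are not given in the sources used here.

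Insulin and IGF1 bind receptor tyrosine kinases on the cell surface, which phosphorylate docking proteins such as the IRS proteins. These recruit PI3-kinase, whose lipid product brings PDK1 and AKT to the membrane, and AKT then phosphorylates FOXO transcription factors, GSK3 and the TSC complex that restrains mTOR. Beta cells make insulin and also respond to it, and loss of Irs2 in mice leads to failure of beta-cell growth and to diabetes.

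With 1 array per genotype there was no test, and every value describes these 2 samples. The processed intensity of a probe, in arbitrary units, is given as deposited. A difference is the log2 intensity on the CSE-KO array minus that on the CSE-WT array after each array was scaled to its own 75th percentile, which was 540 on the CSE-KO array and 519 on the CSE-WT array. A fold is 2 to the power of that difference. The only error available was technical, the SD between spots of a probe printed 10 times on an array, which came to 0.07 log2 units for a difference at the median of all levels. For the measured members this spot SD ran from 0.04 for the brightest, Akt1, whose probe had 2 spots, to 0.27 for the dimmest. Gsk3a, a bright member with 1 spot, had 0.05. It holds no spread between animals or preparations, nor between labellings or hybridisations.

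Transcripts of the insulin and IGF pathway differed little between these 2 samples. The median difference of the 34 measured members was -0.01 log2 units, and that of all 22139 measured genes was also -0.01. Of the members, 16 were higher and 18 lower on the CSE-KO array (47.1% higher, against 48.6% of all measured genes). Neither direction had a member past 2-fold (0 higher and 0 lower), a size reached by 0.718% of all measured genes upward and 0.89% downward. A smaller size of 0.32 log2 units was passed by 3 members upward (8.82%, against 9.21% of all measured genes) and by 1 downward (2.94%, against 7.56%). The members higher by that size were Foxo3, Igfbp5 and Gab1, and the lower one was Igfbp3. These calls depended on the processing: with normexp, a background model fitted to the raw spot signals, Foxo3 was 0.320, Igfbp5 0.27 and Gab1 0.15, all below the size of 0.322, and with scaling to the array medians Igfbp3 was -0.31.

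Counted against the technical error, 14 members lay within 1 spot SD of 0 and 12 between 1 and 3 spot SD. A further 8 members differed by more than 3 spot SD, 4 of them higher (11.8%, against 9.68% of all measured genes) and 4 lower (11.8%, against 10.7%). The 4 higher members were Foxo3, Igfbp5, Irs1 and Foxo1, and the 4 lower ones were Igfbp3, Pik3r3, Igfbp7 and Shc1. The shares of members past each size were thus near those of all genes or below them. Brighter genes carry less noise, so the 24 members brighter than the median gene were also counted alone, against the 11069 measured genes of that kind. Of them 8 were higher at all (33.3%, against 44.0%), 2 were higher by over 3 spot SD (8.33%, against 10.6%) and 4 were lower by that much (16.7%, against 14.8%). Past 0.32 log2 units there were 0 higher (against 3.17%) and 1 lower, Igfbp3 (4.17%, against 3.07%), and past 2-fold 0 higher (against 0.126%) and 0 lower (against 0.0271%).

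**Figure D1:**
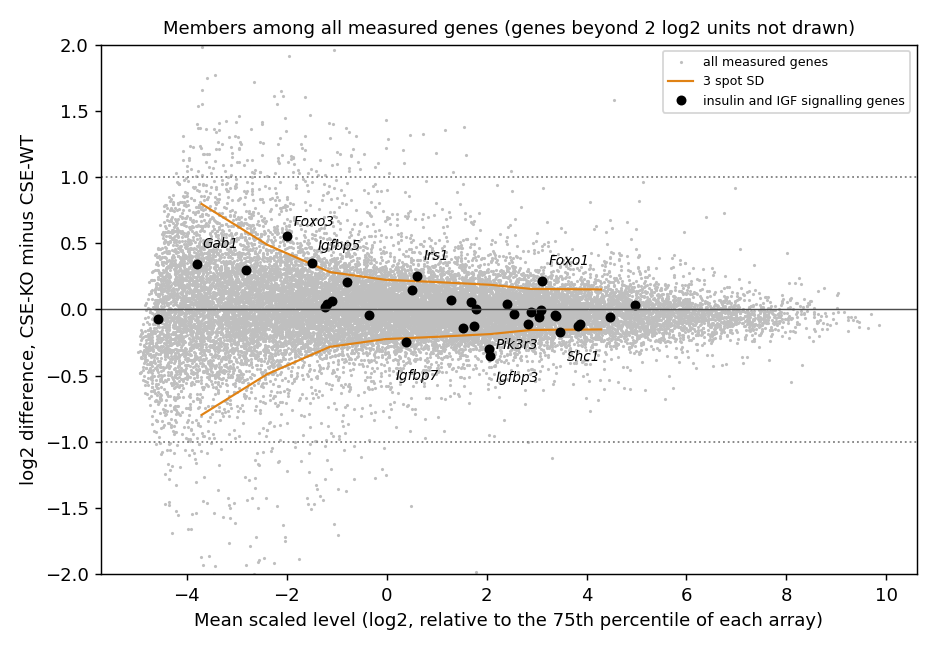
Difference between the arrays (vertical axis, log2, CSE-KO minus CSE-WT) against the mean scaled level (horizontal axis, log2 relative to each array's 75th percentile) of all measured genes in grey and of the 34 measured members in black. The orange lines mark 3 spot SD at each level and the dotted lines 2-fold; 83 genes beyond 2 log2 units are not drawn. The members lie between -0.35 and 0.55, inside the grey cloud.

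The targeted gene, Cth, had 2 probes, and neither was well above background on either array. They read 3.15 and 3.68 units on the CSE-KO array and 13.5 and 12.8 units on the CSE-WT array, so no fold is given and the probes give no firm check of the labels. Beta-cell markers were present on both arrays. Of 10, 4 were higher on the CSE-KO array, where 48.6% of all measured genes were (median -0.09, range -0.23 to 0.11). Past 3 spot SD there were 0 higher and 3 lower (9.68% and 10.7% of all measured genes were). Together the 10 had a summed intensity, not scaled, of 1.40e+06 on the CSE-KO array and 1.45e+06 on the CSE-WT array. Ins1 read 482701 units on the CSE-KO array and 503410 on the CSE-WT array, and Ins2 read 330923 units in CSE-KO and 332046 in CSE-WT. RNA of other pancreatic cells was also abundant, since the glucagon gene Gcg read 360773 units on the CSE-KO array and 381292 on the CSE-WT array. Fewer cells of a type and less RNA per cell cannot be told apart in such samples. Of the 55678 gene probes, 2419 lay in small regions of the slide where neighbouring spots differed strongly between the arrays. These held 13 of the 159 genes at least 2-fold higher and 123 of the 197 at least 2-fold lower. Versions of the region rule had been compared by how many 2-fold lower genes they held, so the latter count supports nothing. Only 1 member probe, that of Igfbp5, lay in such a region.

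IGF1 and the IGF-binding proteins, secreted factors that carry IGFs and limit or prolong their action, showed differences in both directions. Igfbp3, which encodes the main carrier of IGF1 in blood, read 1993 units on the CSE-KO array and 2443 on the CSE-WT array. This is a difference of -0.35 log2 units (1.27-fold lower, spot SD 0.06), the lowest among the members. Its probe lies on the minus strand at chr11:7106594-7106653 (mm9, the build of the array files). A second Igfbp3 probe was above background on the CSE-WT array alone, with 10.3 units on the CSE-KO array and 21.5 on the CSE-WT array, at least 1.54-fold lower. Both probes of Igfbp3 thus read lower on the CSE-KO array. For such a probe the fold is a bound, taken against the higher of its own signal and the lowest signal counted as above background on the dim array. The bound makes no allowance for spot error, and the spot SD of this second probe was 0.27.

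Igfbp5, a binding protein held in the extracellular matrix, read 215 units on the CSE-KO array and 162 on the CSE-WT array. It was 1.27-fold higher (0.35 log2 units, spot SD 0.11), by its single probe at chr1:72904829-72904888 (mm9, minus strand). Of the 14 spots around this probe, 3 were brighter on the CSE-WT array by over 1.5 log2 units. Igfbp2, the adjoining gene on chromosome 1, has a probe 6092 bases away, and there the arrays read alike (22.2 units in CSE-KO and 22.4 units in CSE-WT, difference -0.07, spot SD 0.27). Igfbp2 was dim, and its spot SD was among the widest of the members.

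Igfbp7, a related binding protein abundant in blood vessels, read 647 units on the CSE-KO array and 740 on the CSE-WT array, a difference of -0.25 (spot SD 0.07). Igfbp6, which prefers IGF2, is the member that was not measured on both arrays. It read 24.6 units on the CSE-KO array, above background, and 14.7 on the CSE-WT array, not well above background. Its bound was at least 1.34-fold higher, without allowance for spot error, and the spot SD of this dim probe was 0.27. Igf1 itself read 3968 units on the CSE-KO array and 3862 on the CSE-WT array by its brightest probe (difference -0.02, spot SD 0.04). The pair of spots of that probe ran from 3908 to 4029 units on the CSE-KO array and from 3735 to 3994 on the CSE-WT array, so they overlapped. The 3 other measured Igf1 probes read 34.5 to 44.5 units on the CSE-KO array and 35.5 to 50.5 on the CSE-WT array, and differed by -0.52, -0.24 and 0.22.

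Several of these secreted factors are made by stromal, vascular or immune cells, whose marker values are given here. Over all measured genes 48.6% were higher on the CSE-KO array, 9.68% were higher by over 3 spot SD and 10.7% lower by that much. Past 3 spot SD, 6 stellate cell and fibroblast markers were higher and 0 lower. For macrophage markers the counts were 5 higher and 1 lower, and for endothelial markers 1 and 0. Acinar markers had 2 higher and 3 lower, duct markers 1 and 1, and alpha, delta and PP cell markers 0 and 5. Of 6 measured stellate cell and fibroblast markers, 6 were higher on the CSE-KO array (median 0.64), with a summed intensity of 2994 on the CSE-KO array and 2181 on the CSE-WT array, while Lum and Pdgfra were not measured on both. Of 8 measured macrophage markers 7 were higher (median 0.35), with a sum of 32497 on the CSE-KO array and 24721 on the CSE-WT array. Endothelial markers were higher in 5 of 8 (median 0.05, sums 46650 in CSE-KO and 44267 in CSE-WT). Acinar markers were higher in 3 of 8 (median -0.09, sums 388274 in CSE-KO and 399631 in CSE-WT). Duct markers were higher in 2 of 4 (median -0.02, sums 6433 in CSE-KO and 6959 in CSE-WT, with Sox9 and Cftr not measured). Markers of alpha, delta and PP cells were higher in 1 of 8 (median -0.26, sums 842003 in CSE-KO and 874045 in CSE-WT). These sums are of intensities that were not scaled, and they lean on the brightest markers. The CSE-KO array was brighter as a whole (75th percentile 540, against 519 on the CSE-WT array). Some markers, in the acinar and duct lists among others, lay in the slide regions described above. The part of these cells in the differences of the binding proteins was not tested.

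**Figure D2:**
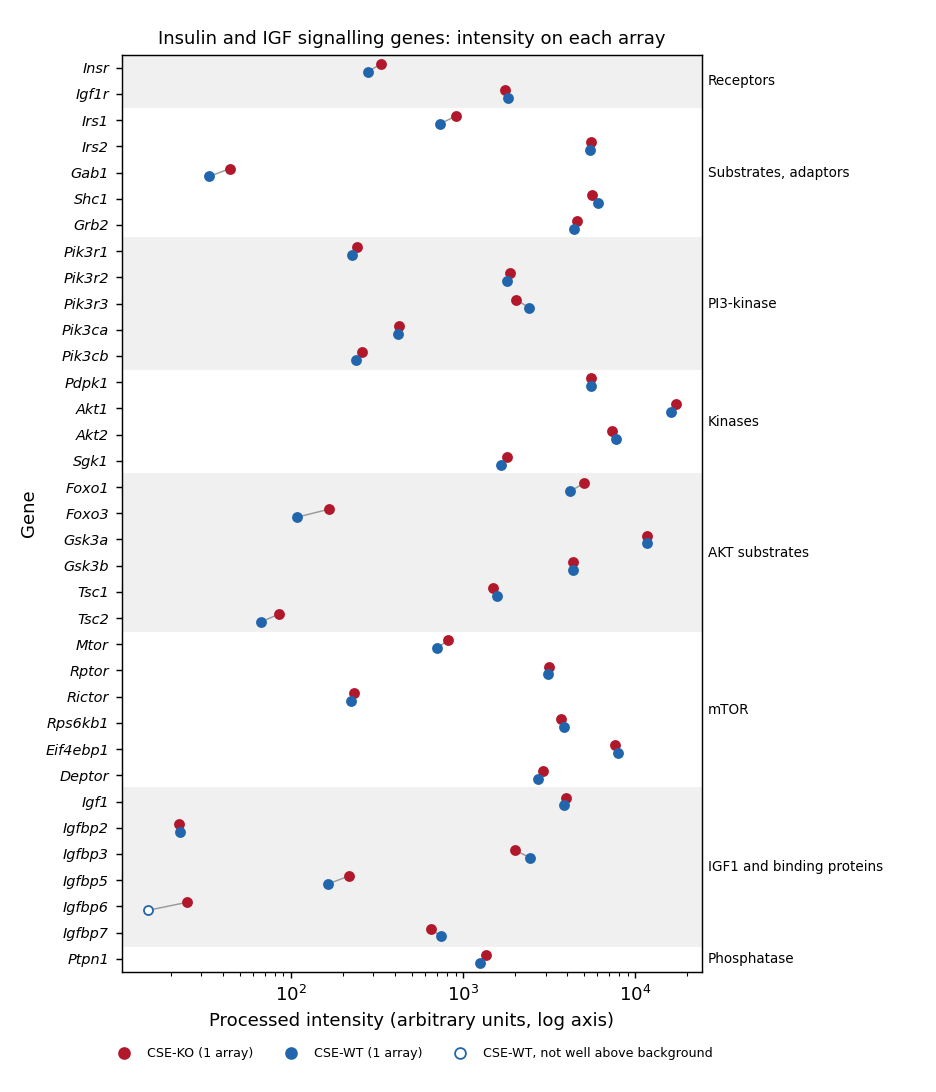
Processed intensity (horizontal log axis, arbitrary units) of the chosen probe of each of the 35 members, grouped by role, with the CSE-KO array in red above the CSE-WT array in blue and an open circle for a value not well above background. A grey line joins the values of a gene; the widest gaps are those of Foxo3 (165 units in CSE-KO, 108 in CSE-WT) and Igfbp6 (24.6 units in CSE-KO, 14.7 in CSE-WT).

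The receptors differed by less than 3 spot SD. Insr, the insulin receptor gene, read 333 units on the CSE-KO array and 278 on the CSE-WT array by its brightest probe (difference 0.20, spot SD 0.09). Its other probes gave 86.3 and 96.9 units on the CSE-KO array, against 106 and 71.2 on the CSE-WT array, with differences of -0.35 and 0.39. The 3 Insr probes, all on chromosome 8 between positions 3151667 and 3155531 (mm9, minus strand), did not point one way. Igf1r, the IGF1 receptor gene, read 1737 units on the CSE-KO array and 1824 on the CSE-WT array, a difference of -0.13 (spot SD 0.06). Ptpn1, whose product PTP1B dephosphorylates the insulin receptor, read 1354 units on the CSE-KO array and 1243 on the CSE-WT array (0.07, spot SD 0.07), and its second probe differed by 0.13.

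Of the docking protein genes, Irs1 was higher by its brightest probe and Irs2 was within 1 spot SD of 0. Irs1 read 901 units on the CSE-KO array and 727 on the CSE-WT array by that probe, a difference of 0.25 (spot SD 0.07) or 1.19-fold. A dim second probe read 23.0 units on the CSE-KO array and 29.3 on the CSE-WT array, a difference of -0.40 (spot SD 0.27). The mean of both probes was -0.074, so the direction for Irs1 rests on the brighter probe. Irs2, the IRS gene that mouse beta cells depend on, read 5523 units on the CSE-KO array and 5470 on the CSE-WT array by 1 probe (difference -0.04, spot SD 0.05).

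Promoter letters of both IRS genes are shown because Irs2 transcription is known to be repressed by insulin through a FOXO-binding insulin response element, and the members hold both the FOXO factors and the IRS genes. The 250 bases before the annotated start (RefSeq, GRCm38.p6, minus strand in both) are printed 5′ to 3′, with TGTTTTG in capitals. Irs1 lies at chr1:82291440-82291689 and Irs2 at chr8:11008930-11009179.
Irs1 promoter: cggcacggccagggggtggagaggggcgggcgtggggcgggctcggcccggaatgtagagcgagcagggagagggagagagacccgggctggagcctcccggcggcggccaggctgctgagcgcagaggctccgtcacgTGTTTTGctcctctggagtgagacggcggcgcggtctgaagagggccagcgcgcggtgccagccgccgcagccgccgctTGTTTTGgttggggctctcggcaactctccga
Irs2 promoter: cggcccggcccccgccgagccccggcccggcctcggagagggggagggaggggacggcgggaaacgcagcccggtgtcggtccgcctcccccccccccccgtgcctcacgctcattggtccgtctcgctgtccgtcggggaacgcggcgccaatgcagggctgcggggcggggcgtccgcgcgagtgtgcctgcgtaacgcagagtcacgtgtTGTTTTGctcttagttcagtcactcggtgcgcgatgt
The motif TGTTTTG begins 111 and 32 bases before the Irs1 start and 37 bases before the Irs2 start. Searched on both strands, it occurred in 3 of 49 promoters of the 32 members with an entry (those of Gab1, Irs1 and Irs2) and in 5.56% of all 32851 promoters of the table. The related FOXO motif TGTTTAC occurred in 1 of 49 (Akt1) and in 3.17% of all. These 2 motifs were kept after 9 had been scanned, and a match is a description of letters, not a binding site. Insr, Eif4ebp1 and Deptor have no entry.

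The other adaptors link receptors to RAS and to PI3-kinase. Gab1, a docking protein, was dim, at 44.0 units on the CSE-KO array and 33.3 on the CSE-WT array, and its 0.35 log2 units (1.27-fold higher) was 1.30 times its wide spot SD of 0.27. Shc1, an adaptor of the RAS branch, read 5602 units on the CSE-KO array and 6061 on the CSE-WT array, a difference of -0.17 (spot SD 0.05). Grb2, which brings the RAS exchange factor SOS to receptors, read 4561 units on the CSE-KO array and 4397 on the CSE-WT array. Its difference was -0.00 (spot SD 0.05) and that of its second probe 0.01.

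Within PI3-kinase, 1 of 5 subunit genes was lower by over 3 spot SD (10.7% of all measured genes were). Pik3r3, which encodes the regulatory subunit p55-gamma, read 2022 units on the CSE-KO array and 2398 on the CSE-WT array, a difference of -0.30 (1.23-fold lower, spot SD 0.06), by its probe at chr4:115975600-115975659 (mm9, plus strand). The other regulatory subunit genes were near 0, with Pik3r1 at 241 units on the CSE-KO array and 225 on the CSE-WT array (0.04) and Pik3r2 at 1871 units in CSE-KO and 1797 in CSE-WT (0.00). The catalytic subunit genes were also near 0. Pik3ca read 420 units on the CSE-KO array and 415 on the CSE-WT array (-0.04, spot SD 0.08), and Pik3cb read 259 units in CSE-KO and 238 in CSE-WT (0.07, spot SD 0.09).

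The kinases downstream of PI3-kinase all differed by less than 3 spot SD. Pdpk1, the gene of PDK1, read 5547 units on the CSE-KO array and 5518 on the CSE-WT array (-0.05), with its 3 probes between -0.06 and 0.07. Akt1 read 17110 units on the CSE-KO array and 16113 on the CSE-WT array, a difference of 0.03 (spot SD 0.04). Its pair of spots ran from 16753 to 17475 units on the CSE-KO array and from 15724 to 16511 on the CSE-WT array, apart before scaling. Akt2, the form most tied to glucose uptake, read 7333 units on the CSE-KO array and 7698 on the CSE-WT array (-0.13, spot SD 0.05), while its 3 other probes differed by 0.01, 0.09 and 0.11. Sgk1, a kinase related to AKT, read 1783 units on the CSE-KO array and 1653 on the CSE-WT array (0.05, spot SD 0.06).

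Among the AKT substrates, Foxo1 and Foxo3 were higher on the CSE-KO array. Foxo3 had the widest difference of the 34 members measured on both arrays, with 165 units on the CSE-KO array and 108 on the CSE-WT array by its probe at chr10:41967288-41967347 (mm9, minus strand). It was 1.47-fold higher (0.55 log2 units, spot SD 0.14). A second Foxo3 probe cleared the background in CSE-KO alone, at 34.2 units there and 13.1 on the CSE-WT array. Its bound was at least 1.86-fold higher, with a spot SD of 0.27 that the bound does not include. By the array's annotation the brighter probe belongs to a cDNA clone, and the second, at chr10:41905610-41905669, to the RefSeq transcript. Whether the clone sequence reports Foxo3 mRNA was not determined. With normexp, whose offset narrows the differences of dim probes, the difference of the brighter Foxo3 probe was 0.320.

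Foxo1, the FOXO factor that restrains Pdx1 and beta-cell growth in mice, read 5047 units on the CSE-KO array and 4191 on the CSE-WT array, a difference of 0.21 (1.16-fold, spot SD 0.05). Its second probe read 2382 units on the CSE-KO array and 2176 on the CSE-WT array, a difference of 0.07 (spot SD 0.06). Both probes of Foxo1 and of Foxo3 thus read higher on the CSE-KO array. FOXO proteins are mainly controlled by phosphorylation and export from the nucleus, which arrays do not measure.

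The probes of 4 pathway genes are printed to show what was hybridised, 5′ to 3′ in the sense of the transcript. They are the Foxo1 probe with the 0.21 difference (chr3:52150183-52150242, plus strand), the probes of Irs2 (chr8:11004490-11004549, minus strand) and Pik3ca (chr3:32360630-32360689, plus strand), which read nearly alike on both arrays, and the dimmest of the 3 Gsk3b probes (chr16:38187987-38191632, plus strand), all on mm9. No base is in capitals.
Foxo1 probe: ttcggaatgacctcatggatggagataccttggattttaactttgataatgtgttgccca
Irs2 probe: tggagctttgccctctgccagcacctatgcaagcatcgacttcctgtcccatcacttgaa
Pik3ca probe: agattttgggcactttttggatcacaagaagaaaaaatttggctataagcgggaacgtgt
Gsk3b probe: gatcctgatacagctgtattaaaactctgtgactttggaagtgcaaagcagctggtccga
The 60 bases of that Gsk3b probe span 3646 bases of the genome, so it crosses an intron and matches spliced RNA. The place of the other probes in exons or UTRs was not determined, since no genome annotation of that build was used.

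The remaining AKT substrates include GSK3, which inhibits glycogen synthase, and the subunits of the TSC complex. Gsk3a read 11656 units on the CSE-KO array and 11674 on the CSE-WT array (-0.06, spot SD 0.05). Gsk3b read 4356 units on each array by its brightest probe (-0.06 after scaling), and its 2 other probes differed by 0.03 and 0.02. Tsc1 read 1479 units on the CSE-KO array and 1570 on the CSE-WT array (-0.14, spot SD 0.07). Tsc2, dim at 84.9 units on the CSE-KO array and 66.3 on the CSE-WT array, differed by 0.30 with a spot SD of 0.20. The partners in the TSC complex had opposite signs, and neither passed 3 spot SD.

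**Figure D3:**
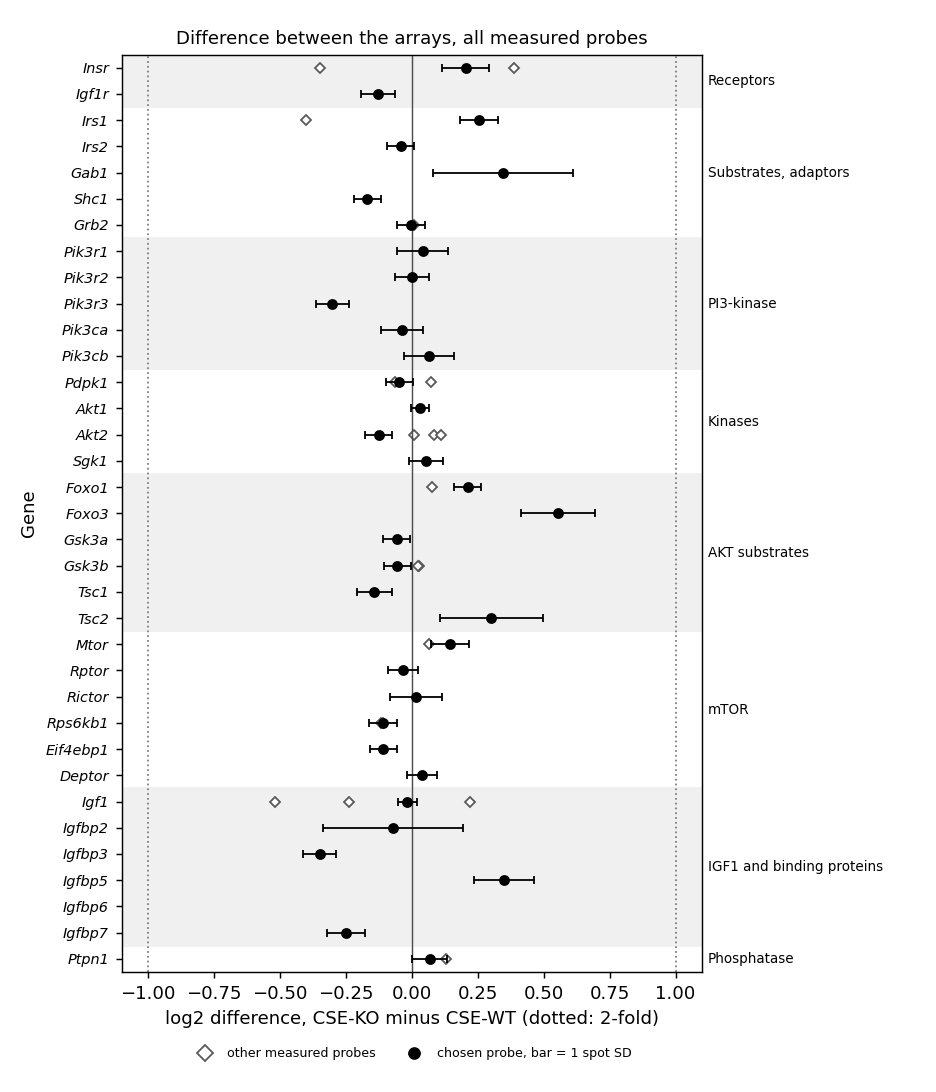
Difference between the arrays (horizontal axis, log2, CSE-KO minus CSE-WT) for every measured probe of the members, grouped by role; black points are the chosen probes with bars of 1 spot SD, open diamonds the other measured probes, dotted lines 2-fold. Igfbp6 has no point because it was measured on 1 array only. The chosen probes run from -0.35 for Igfbp3 to 0.55 for Foxo3, and the probes of Insr, Irs1 and Igf1 scatter on both sides of 0.

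The mTOR complexes sense nutrients and growth factors and drive protein synthesis. Mtor, the kinase itself, read 810 units on the CSE-KO array and 704 on the CSE-WT array (0.15, spot SD 0.07), and its second probe differed by 0.07. Rptor, the defining subunit of complex 1, read 3133 units on the CSE-KO array and 3085 on the CSE-WT array (-0.03). Rictor, the defining subunit of complex 2, read 232 units on the CSE-KO array and 221 on the CSE-WT array (0.02). Deptor, an inhibitor of both complexes, read 2905 units on the CSE-KO array and 2721 on the CSE-WT array (0.04, spot SD 0.06). None of these passed 3 spot SD.

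Both listed outputs of mTOR complex 1 were lower by under 3 spot SD. Rps6kb1, the gene of S6 kinase 1, read 3708 units on the CSE-KO array and 3852 on the CSE-WT array (-0.11, spot SD 0.05), and its 3 measured probes ran from -0.12 to -0.11. Eif4ebp1, a translation repressor released by mTOR phosphorylation, read 7608 units on the CSE-KO array and 7891 on the CSE-WT array (-0.11, spot SD 0.05).

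Probes of the same gene give a second view of the error. Of 11 members with more than 1 measured probe, 4 had all of them in 1 direction, against 56.1% of the 6144 such genes on the array. The 4 were Foxo1, Mtor, Rps6kb1 and Ptpn1. The SD between the measured probes of a gene had a median of 0.08 log2 units over these members and 0.12 over all such genes, beside a median absolute difference of 0.09 over the 34 members.

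Beyond the members, 135 other genes of the pathway were listed and 122 of them measured. Of these, 58 were higher on the CSE-KO array (48.6% of all measured genes were) and the median was -0.01. Past 0.32 log2 units there were 8 higher and 7 lower (9.21% and 7.56% of all measured genes were), and past 2-fold 0 higher and 1 lower (0.718% and 0.89% of all). These counts were near the share of all genes or below it.

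The gene past 2-fold was Inpp4b, a lipid phosphatase that acts on products of PI3-kinase. It read 39.1 units on the CSE-KO array and 155 on the CSE-WT array (4.12-fold lower), but 3 of the 14 spots around it were also strongly brighter on the CSE-WT array. In the same list of PI3-kinase and AKT genes, 9 of 28 were higher, where 48.6% of all measured genes were (median -0.03). Trib3, a pseudokinase that binds AKT, read 2200 units on the CSE-KO array and 1296 on the CSE-WT array (0.71), and the lipid phosphatase gene Inpp5d, known from blood cells, read 275 units in CSE-KO and 193 in CSE-WT (0.46). Foxo6 read 3911 units on the CSE-KO array and 4924 on the CSE-WT array (-0.39), while its other probe differed by 0.00.

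Ligand, binding protein and processing genes were higher in 7 of 8 measured of 14 listed (median 0.06), where 48.6% of all measured genes were higher. The IGFBP protease genes Pappa2 (0.23) and Pappa (0.15), the insulin-degrading enzyme gene Ide (0.19) and the IGF2 receptor gene Igf2r (0.10) had the largest differences. That of Pappa was within 1 spot SD of 0, and around at least 1 of the repeat spots of the Igf2r probe 5 of 14 neighbouring spots differed strongly between the arrays. Of the other adaptors and receptor brakes, 7 of 17 were higher (median -0.06). The SOCS genes, feedback inhibitors of cytokine and insulin signals, differed in opposite directions. Socs3 read 1375 units on the CSE-KO array and 2049 on the CSE-WT array (-0.63, spot SD 0.06), and Socs1 read 101 units in CSE-KO and 76.0 in CSE-WT (0.35, spot SD 0.18). Sos1 (-0.26) and Cav1 (0.26) were each within 1 spot SD of 0.

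Other mTOR genes were higher in 20 of 34 (median 0.06), where 48.6% of all measured genes were higher. Ddit4, a stress-induced inhibitor of mTOR complex 1, read 7684 units on the CSE-KO array and 5850 on the CSE-WT array (0.34, spot SD 0.05). The translation inhibitor gene Pdcd4 (0.29), the S6 kinase 2 gene Rps6kb2 (0.29) and the lysosomal amino acid sensor gene Slc38a9 (0.36, its 3 probes from -0.03 to 0.40) were also higher. In the RAS and MAP kinase branch 11 of 17 were higher (median 0.01). The ERK phosphatase gene Dusp6 was higher (0.41), while the GTPase activator genes Rasa1 (-0.28) and Nf1 (-0.23) were lower.

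Of 21 FOXO target genes listed, 18 were measured, of which 14 were lower on the CSE-KO array and 4 higher (median -0.13), where 48.6% of all measured genes were higher. Past 3 spot SD there were 3 higher and 6 lower (9.68% and 10.7% of all measured genes were), and past 0.32 log2 units 2 higher and 4 lower (9.21% and 7.56% of all). Pdk4, the kinase that switches off pyruvate dehydrogenase, read 544 units on the CSE-KO array and 988 on the CSE-WT array (-0.92, 1.89-fold lower, spot SD 0.07). Ppargc1a, the coactivator of mitochondrial and gluconeogenic genes, read 218 units on the CSE-KO array and 384 on the CSE-WT array (-0.88, 1.84-fold lower), with both probes at -0.88. The mitophagy gene Bnip3 was lower (-0.36, its 3 probes from -0.38 to -0.26), and Cited2 was higher (0.36, its other probe 0.23). These genes are also controlled by other factors. The list median lay between -0.15 and -0.09 in the 8 alternative settings tried. Those settings all reprocess the same 2 arrays, and the list was chosen with earlier results of these data known. The narrow range is thus no measure of stability.

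**Figure D4:**
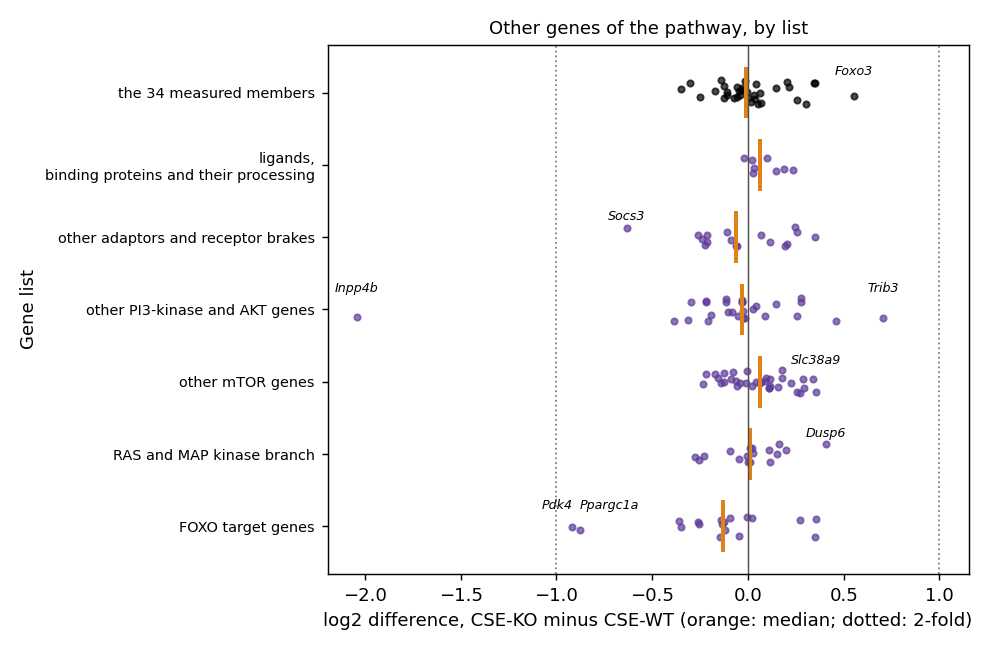
Difference between the arrays (horizontal axis, log2, CSE-KO minus CSE-WT) of the 34 measured members in black and of the other pathway genes by list in purple, with the median of each list in orange and 2-fold dotted. The list medians lie between -0.13 for FOXO targets and 0.06 for the ligand and mTOR lists, and Inpp4b at -2.04 stands apart.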

How the data were processed

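Expression was measured on 2 arrays, 1 for CSE-KO and 1 for CSE-WT, both on 1 slide. Per the file headers, the deposited intensity of each spot is the processed signal of Agilent Feature Extraction 10.7.1.1, whereas version 9.5.1.1 stands in the submitters' processing notes. A deposited table by the authors holds intensity per probe (median 37.7 in each column) on a linear scale, with no centring seen. Its normalization steps are not given in the sources used here. Its member differences were nearly those of the quantile normalization tried here (Foxo3 0.574 with each), so as an alternative it adds little to that setting. Its log2 values tracked those of the same sample's array (r = 0.9999 across probes, which are not replicates).

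Gene spots flagged as outliers were left out (169 on CSE-KO, 139 on CSE-WT, 0 of members), log2 was taken, repeat spots were averaged and each array was scaled by its 75th percentile of 55678 gene probes, with Python 3.11.15, numpy 2.4.6 and pandas 2.3.3. Probes well above background numbered 59.6% on CSE-KO and 57.0% on CSE-WT. A gene took the measured probe of highest mean level, and no level was compared between genes. Gene names came from the files, updated by accession (27181 probes), symbol (3575) or older symbol (565) through a RefSeq table; 24300 probes kept the name in the file. Spot SD came from 396 probes printed 10 times, by level. The steps were tested on simulated data.

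All 35 members are named, and of each pathway list those past 2-fold and the 4 largest differences, of which 1 gene is not reported here; of each marker list, range or median and counts, plus Cth, Ins1, Ins2 and Gcg. The members and lists were chosen with earlier results of these data known. The rule for regions of the slide (at least 3 of the 14 nearest spots past 1.5 log2 units in 1 direction) and the promoters and motifs were chosen after seeing the data. Several versions of that region rule, with other radii, sizes and minimums, had been compared by how many of the 2-fold lower genes they held, so its count of those genes supports nothing. With 1 array per genotype there is no p-value, and precision is limited by the number of arrays. Alternatives used limma 3.58.1 in R 4.3.3 for quantile, cyclic loess and normexp (offset 50).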

Additional observations from a re-analysis of the deposited data

How the results depend on the processing

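The alternatives were scaling to the median, quantile normalization, cyclic loess, normexp, the authors' deposited table, no filter on dim probes, the mean over probes, and leaving out probes in regions of the slide where neighbouring spots differed. In these 8 settings 0 members passed 2-fold, and the median of the members stayed between -0.02 and 0.02. The median of all genes moved by under 0.1 in each scaling. The count higher by 0.32 log2 units was 1 with cyclic loess and 0 with normexp, and the count lower by that size was 0 with median scaling and 2 with normexp, where Pik3r3 (-0.37) was past it too. Among the members above the median level the number higher was 8 of 24, and of the 10 others 8 were higher. Among all measured genes the share higher was also smaller above the median level (44.0%, against 48.6% over all). The cause was not tested. Of 271 values of single members, 254 stayed within 1 spot SD of the value given, 16 moved further and 1 reversed. The one counted as reversed was Irs1, -0.074 as the mean over its probes, which averages its dim second probe in. Other changes of sign, given below, were not counted as reversed. Many of the 271 values could not move. Leaving out the filter or the slide regions kept the chosen probe of every member still counted. A member with 1 measured probe has no other to average. The count of 254 is thus no measure of stability. Igf1, Grb2, Rptor and Rictor, each within 1 spot SD of 0, changed sign with the scaling or background setting. Akt2 also changed sign, from -0.13 by its chosen probe to 0.02 as the mean over its probes. The median of the PI3-kinase and AKT list was 0.00 with median scaling, an alternative added for the lists after seeing the data. No paired analysis was possible because each genotype had 1 array. Precision at low signal limits the dim members most, Gab1, Igfbp2 and Tsc2 above all.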
